A study of Mus musculus with 6 samples.

Results

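Pkhd1 and the Fras1-Frem genes Fras1, Frem1 and Frem2 are 4 of the 35976 genes in the deposited tables, with 21 annotated transcripts among them. They were selected on the comparison of NF-YAcKO with NF-YAfl/fl satellite cells described here, so their own differences between the genotypes are given as a description, with no test. Pkhd1 encodes fibrocystin, a very large membrane protein of the primary cilium known from kidney collecting ducts and bile ducts, whose loss causes autosomal recessive polycystic kidney disease. Fras1, Frem1 and Frem2 encode large extracellular proteins built of NG2-type and Calx-beta repeats. They assemble into a complex that anchors embryonic epithelium to the dermis at the basement membrane, and loss of FRAS1 or FREM2 causes Fraser syndrome in people. Fras1 and Frem2 span the cell membrane, while Frem1 is secreted. Fibrocystin shares no domain architecture with the other proteins of the group, and the genes are grouped here as large proteins best known from epithelium.

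RNA was sequenced from cultures of satellite cells, the stem cells of skeletal muscle, as 3 NF-YAcKO and 3 NF-YAfl/fl libraries. NF-YAcKO mice carry floxed alleles of Nfya, which encodes the regulatory subunit of the CCAAT-binding factor NF-Y, and a tamoxifen-inducible Cre driven by Pax7, so that only cells that used Pax7 at the injections, and their progeny, can lose the gene. NF-YAfl/fl mice have the same floxed alleles without Cre and also received tamoxifen (dissolved at 20 mg/ml per the labels). The labels give an age of 5 to 7 weeks, and the methods a slightly older range. Cells were enriched from hindlimb muscle by depleting other cell types with magnetic beads and were then expanded in growth medium with FGF-2, so that the libraries describe cultures and not quiescent cells. The entry for the deleted Nfya allele took 22.3%, 26.4% and 34.2% of the Nfya counts in the NF-YAcKO libraries and 0 counts in the NF-YAfl/fl libraries.

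Library totals lay between 26936230 and 41118984 expected counts, so that 3 counts were worth 0.0730 to 0.111 CPM on these totals. The CPM values of genes are counts scaled to library size with edgeR's TMM factors. The summed level of 7 markers of differentiated muscle was 619 to 1397 CPM in NF-YAcKO and 42610 to 51200 CPM in NF-YAfl/fl, and all 7 were called lower. The 8 satellite cell and myoblast markers summed to 1703 to 1845 CPM in NF-YAcKO and 2371 to 3995 CPM in NF-YAfl/fl, with 2 called lower. These were Cdh15 and Des, and the mean of Itga7 was also lower. Myod1 overlapped between the genotypes, with 509.5, 626.9 and 564.6 CPM in NF-YAcKO and 361.1, 295.2 and 1146 CPM in NF-YAfl/fl. Its log2 fold change was -0.083 (edgeR FDR = 0.908). The means of Pax7 (170.6 against 88.7 CPM), Myf5, Vcam1 and Sdc4 were higher in NF-YAcKO, and none of these was called. Over all tested genes 7.67% were called lower and 4.65% higher. Macrophage markers were at 116 to 228 CPM against 3.73 to 10.02 CPM, with 5 of 5 called higher in NF-YAcKO. Xist was at 843 ± 8.35 CPM in NF-YAcKO and 0.389 ± 0.0846 CPM in NF-YAfl/fl (SD, n = 3 each), and Ddx3y at 0.0636 ± 0.0277 and 84.9 ± 3.82 CPM, although the methods describe male mice. Effects of genotype and of sex cannot be told apart in these libraries.

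The promoters are shown first, because the deleted factor reads CCAAT boxes. RefSeq's table (GRCm38.p6) holds no promoter for Fras1. It holds a promoter for Pkhd1 and Frem2, whose levels were lowest in NF-YAcKO. Below are the 250 bases before the start that this table uses for each, 5′ to 3′ on the minus strand of the chromosome. These starts are not the outer ends of the genes, and the Frem2 window lies inside the span that RefSeq's gene table gives for that gene. In the Frem2 sequence (chr3:53657356-53657605) capitals mark CCAAT read on the opposite strand, that is ATTGG. In the Pkhd1 sequence (chr1:20618058-20618307) capitals mark CANNTG, the E-box, which is the general word for bHLH factors and not only for the myogenic ones.
Frem2: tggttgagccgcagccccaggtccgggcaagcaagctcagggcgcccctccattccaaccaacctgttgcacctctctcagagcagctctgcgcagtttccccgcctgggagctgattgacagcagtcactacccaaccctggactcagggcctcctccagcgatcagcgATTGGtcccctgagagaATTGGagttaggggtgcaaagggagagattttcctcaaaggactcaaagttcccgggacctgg
Pkhd1: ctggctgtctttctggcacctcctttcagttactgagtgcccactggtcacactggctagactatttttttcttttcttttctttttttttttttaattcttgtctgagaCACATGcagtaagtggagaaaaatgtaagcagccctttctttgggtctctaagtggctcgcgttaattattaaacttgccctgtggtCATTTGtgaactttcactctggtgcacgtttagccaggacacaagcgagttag

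The Frem2 window held 2 CCAAT boxes, which begin at positions -80 and -63 from the start, and no E-box. The Pkhd1 window held no CCAAT box on either strand and 2 E-boxes, which begin at positions -140 and -53. The table has 2 windows for Frem1, both inside its gene span, which held 1 and 2 E-boxes and no CCAAT box. The window of Grip2, a partner gene that was also lower in NF-YAcKO (below), held no CCAAT box and no E-box. Of the 32851 windows of the same length in the table, 33.8% held CCAAT on either strand and 66.2% held CANNTG, which reads the same on both strands. Both CCAAT and CANNTG are thus common words at this length, and a match describes these letters only.

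Pkhd1 was read in every NF-YAfl/fl library and was close to the counting floor in every NF-YAcKO library. The gene covers 560.3 kb of chromosome 1 (20057779 to 20618082, minus strand, GRCm38) and has 4 transcripts of 7822 to 12928 nt. Expected counts were 2157, 2436 and 1794 in the NF-YAfl/fl libraries and 11, 16 and 19.5 in the NF-YAcKO libraries. On the CPM scale these were 82.5, 72.4 and 60.9 against 0.351, 0.386 and 0.470. The lowest NF-YAfl/fl library stood 129-fold above the highest NF-YAcKO library, so the groups lay far apart. The means were 71.9 ± 10.8 and 0.402 ± 0.0613 CPM (SD, n = 3), which leaves 0.559% of the control level, and the log2 fold change was -7.46 (SE 0.198). By this value Pkhd1 was 51st from the bottom of the 17348 genes that were tested. The spread among libraries was 15.0% of the mean in NF-YAfl/fl and 15.2% in NF-YAcKO. In a bulk culture, fewer cells that express a gene and less RNA per cell cannot be told apart.

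Frem2 had the largest difference of the 4 genes. It lies on chromosome 3 (53513938 to 53658593, minus strand, 144.7 kb) and has 3 transcripts. Its counts were 4001, 4218 and 3983 in the NF-YAfl/fl libraries and 8, 16 and 24 in the NF-YAcKO libraries. In CPM this was 153, 125 and 135 against 0.255, 0.386 and 0.564. All 3 control libraries were thus at a level usual for an expressed gene, and none of the NF-YAcKO libraries held more than 24 counts. The mean fell from 137.8 ± 14.0 to 0.402 ± 0.155 CPM (SD, n = 3), a residue of 0.292%, and the log2 fold change was -8.37 (SE 0.248), the 16th lowest of all tested genes.

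Fras1, the founding member of the family, kept a clear level in NF-YAcKO. The gene covers 411.0 kb of chromosome 5 (96373777 to 96784733, plus strand). Counts were 1712, 3098 and 3106 in the NF-YAfl/fl libraries and 447, 681 and 827 in the NF-YAcKO libraries. In CPM the values were 65.4, 92.1 and 105 against 14.2, 16.4 and 19.4. The groups did not overlap, and the lowest control library was 3.37-fold above the highest NF-YAcKO library. The means were 87.7 ± 20.3 and 16.7 ± 2.60 CPM (SD, n = 3), so that 19.1% remained, and the log2 fold change was -2.39 (SE 0.208).

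Frem1, the secreted partner, was scarce in both genotypes. The gene lies on chromosome 4 (82897920 to 83052506, minus strand, 154.6 kb) and has 10 transcripts. Counts were 44, 96 and 21 in the NF-YAfl/fl libraries and 17, 38 and 52 in the NF-YAcKO libraries. The CPM values, 1.68, 2.85 and 0.713 against 0.542, 0.917 and 1.22, overlapped between the groups. Replicate 3 of the controls was below 2 of the 3 NF-YAcKO libraries. The log2 fold change was -0.96 with an SE of 0.533, and the control spread was 61.3% of its mean.

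**Figure D1:**
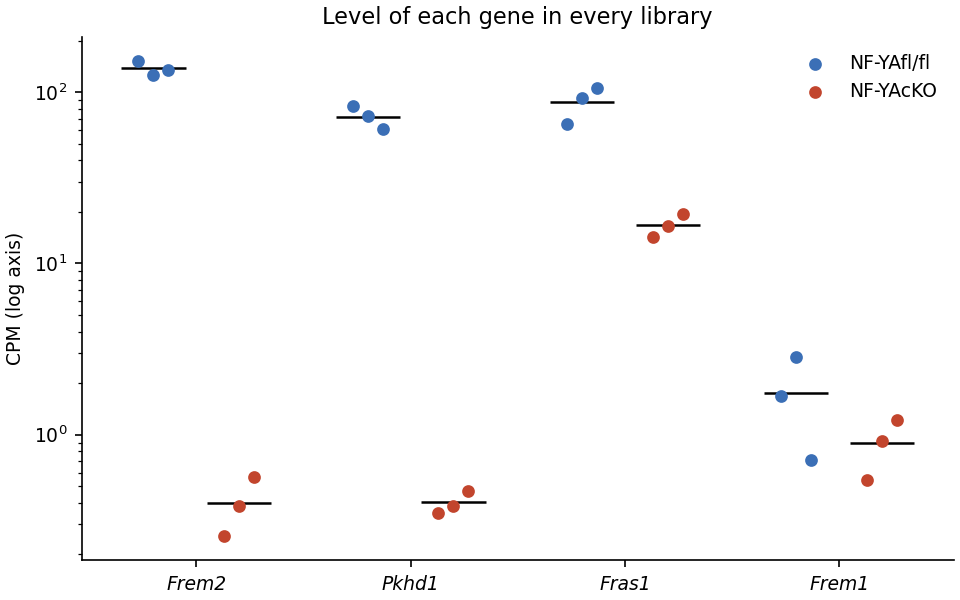
CPM of Frem2, Pkhd1, Fras1 and Frem1 in each of the 6 libraries on a log axis, with blue points for NF-YAfl/fl, red points for NF-YAcKO and a black bar for the mean of 3 libraries. Frem2 and Pkhd1 drop from above 60.9 CPM to below 0.564 CPM, Fras1 stays between 14.2 and 19.4 CPM in NF-YAcKO, and the Frem1 points overlap.

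All 4 genes passed the filter of more than 10 counts in at least 2 libraries, and 3 of the 4 (Pkhd1, Fras1 and Frem2) passed the limits used for a call, that is FDR < 0.01 together with a log2 fold change of more than 1 in either direction. Over all tested genes 7.67% were called lower and 4.65% higher. The same 3 genes had groups that did not overlap, with NF-YAcKO lower, which held for 26.2% of all tested genes. The median log2 fold change was -4.92 for the 4 genes and -0.02 for all tested genes. As the genes were chosen on this contrast, nothing is read from these shares.

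Because CPM does not account for gene length, levels were compared between genes in TPM, the authors' per-length unit. In NF-YAfl/fl, Frem2 was highest at 14.4, 14.7 and 10.7 TPM, and none of these values overlapped those of the other 3 genes. Pkhd1 followed at 8.76, 9.81 and 5.30 TPM and Fras1 at 5.08, 8.46 and 6.58 TPM. The order of Pkhd1 and Fras1 differed among the libraries, so they do not differ beyond their spread. Frem1 was last at 0.21, 0.53 and 0.08 TPM.

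The order was another in NF-YAcKO. Fras1 was now highest at 1.05, 1.06 and 1.45 TPM, above every value of the other genes. Frem1 followed at 0.06, 0.14 and 0.15 TPM, Frem2 stood at 0.02, 0.03 and 0.07 TPM, and Pkhd1 at 0.03, 0.04 and 0.04 TPM. The last 3 genes lie near the limit of what these libraries resolve, and Frem2 overlapped both Frem1 and Pkhd1. In TPM, Frem2 was 2.84, 1.74 and 1.63 times Fras1 in the control libraries and 0.0190, 0.0283 and 0.0483 times Fras1 in the NF-YAcKO libraries. Fras1 and Frem2, whose proteins act in one complex, thus kept unequal fractions of their control level. Among the tested genes, the mean TPM of Frem2 ranked at percentile 66.6 in NF-YAfl/fl and 1.83 in NF-YAcKO, that of Pkhd1 at 55.9 and 1.72, that of Fras1 at 52.4 and 32.0, and that of Frem1 at 10.2 and 6.35.

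**Figure D2:**
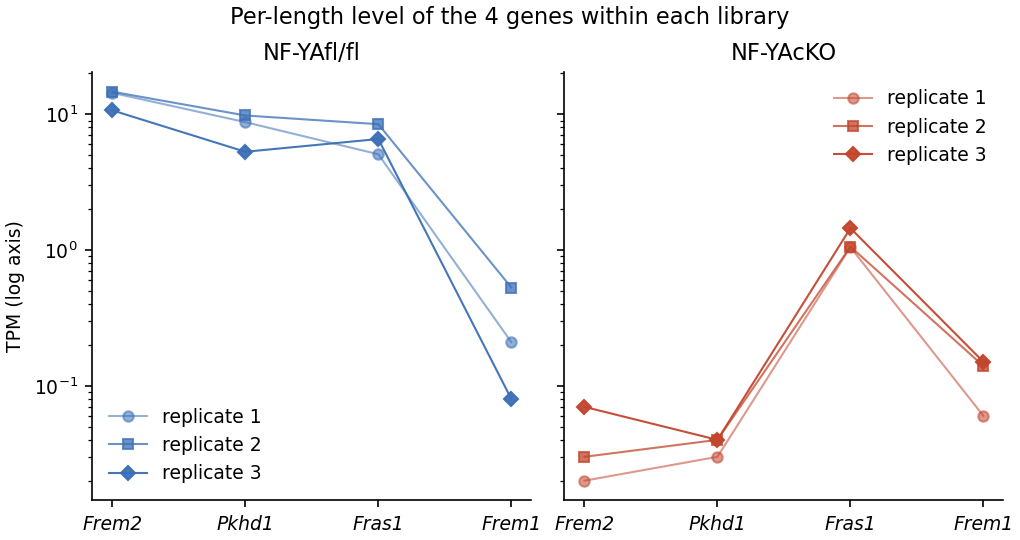
TPM of the 4 genes on a log axis, with one line for each library, NF-YAfl/fl on the left and NF-YAcKO on the right. Frem2 is the highest gene in each control library (10.7 to 14.7 TPM) and Fras1 in each NF-YAcKO library (1.05 to 1.45 TPM).

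RSEM also estimated each transcript's percent of its gene's TPM, which rests on the splitting of shared reads. Pkhd1 was spread over all 4 of its transcripts in NF-YAfl/fl. The full-length transcript of 12928 nt held 37.6% ± 9.32, the 7822 nt transcript 31.9% ± 4.63, the 9445 nt transcript 15.6% ± 4.51 and the 11856 nt transcript 14.9% ± 2.45 (SD, n = 3). No transcript of Pkhd1 had more than 11.2 counts in an NF-YAcKO library, so its makeup there could not be resolved. Frem2 was carried by 1 transcript, of 12348 nt, with 90.9% to 94.2% of its TPM in the control libraries. In NF-YAcKO this transcript held 8 to 17.9 counts.

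Fras1 had enough counts in both genotypes for its transcripts to be set side by side. The transcript of 15848 nt held 66.6% to 78.9% of the Fras1 TPM in NF-YAcKO (74.8% ± 7.05, SD, n = 3) and 44.0% to 61.6% in NF-YAfl/fl (53.4% ± 8.88). The transcript of 15845 nt, a predicted form, held 0% to 9.88% in NF-YAcKO and 11.04% to 21.7% in NF-YAfl/fl. Taken one at a time, these transcripts did not overlap between the genotypes. The predicted 12670 nt transcript overlapped, with 7.69% to 28.4% in NF-YAcKO and 20.0% to 40.7% in NF-YAfl/fl, and the 13405 nt transcript held at most 4.56% in any library. The first pair differ by only 3 nt in length, so that few reads can tell them apart. Added together within each library, the shares of this pair overlapped between the genotypes. Frem1 reads were scattered over its 10 transcripts with at most 43.5 counts on any, and 1 of the 10 was listed at 0 in all libraries.

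Markers of epithelium, the tissue in which these genes are best known, were also read. Of 8 epithelial markers, 7 were tested and 0 were called by edgeR, next to 7.67% called lower and 4.65% higher over all tested genes. Epcam was at 0.695 CPM in NF-YAcKO and 0.697 CPM in NF-YAfl/fl, and Cdh1 at 1.09 and 1.64 CPM. The keratins Krt8 (56.9 against 6.49 CPM, log2 fold change 3.15, FDR = 0.0396) and Krt18 (43.5 against 5.58 CPM, 2.97, FDR = 0.0238) were read at higher means in NF-YAcKO without passing the limit on the FDR, and made up most of the summed level in each NF-YAcKO library. Krt14 (1.098 against 0.0905 CPM, FDR = 0.0214) and Cldn4 (21.4 against 4.91 CPM, FDR = 0.0302) had differences in the same direction that did not pass either. Krt5 was at 0 in all NF-YAfl/fl libraries. The summed level of the epithelial markers was 69.7 to 193 CPM in NF-YAcKO and 5.43 to 46.9 CPM in NF-YAfl/fl. The part of epithelial cells in the levels of the 4 genes was not tested.

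Markers of differentiated muscle were lower in NF-YAcKO together with Pkhd1, Fras1 and Frem2. In the NF-YAcKO libraries, Myog (the bHLH factor that starts differentiation) kept 2.03% of its control mean, Myh3 (embryonic myosin) 0.365%, Ckm (muscle creatine kinase) 1.40%, Acta1 (skeletal actin) 0.952%, Tnnt3 (fast troponin T) 2.69%, Mylpf (fast myosin light chain) 0.977% and Ttn (titin) 2.53%. The residues of Frem2 (0.292%) and Pkhd1 (0.559%) lay at the low end of this range or below it, while those of Fras1 (19.1%) and Frem1 (51.1%) lay above all 7. The marker sum was 619, 1057 and 1397 CPM in replicates 1, 2 and 3 of NF-YAcKO, a ratio of 2.26 from highest to lowest. The same libraries were lowest and highest for Pkhd1 (ratio 1.34), Fras1 (1.36), Frem1 (2.25) and Frem2 (2.21). The part of the muscle cells' share in these levels was not tested.

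**Figure D3:**
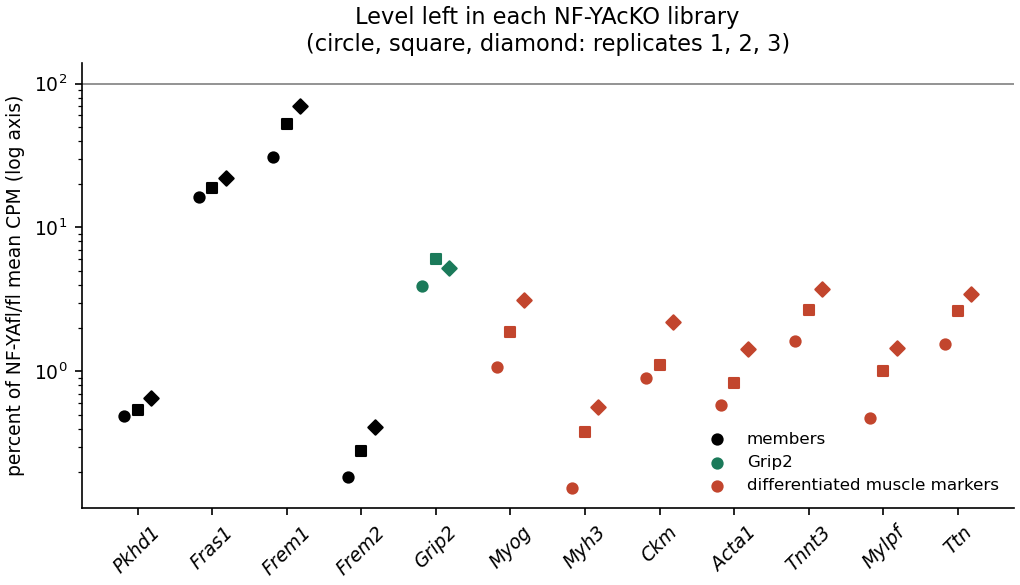
Level left in each NF-YAcKO library as a percent of the NF-YAfl/fl mean CPM, on a log axis, for the 4 genes (black), Grip2 (green) and 7 markers of differentiated muscle (red). Frem2 and Pkhd1 lie below 0.654% and Fras1 between 16.3% and 22.2%, while the mean of the markers runs from 0.365% to 2.69%.

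As a description, the genes whose log2 CPM followed each gene most closely over the 6 libraries were listed by Pearson's r among the 14125 tested genes whose mean reached 1 CPM. For Pkhd1 these were Scn4a (r = 0.9996), the sodium channel of skeletal muscle, 3425401B19Rik (r = 0.9993) and Trim72 (r = 0.9993), a membrane repair protein of muscle. For Frem2 they included Capn1, a calpain, and Myh1, an adult fast myosin, with r = 0.9998 each. The size of the difference was not alike. The mean of Capn1 was 94.0 CPM in NF-YAfl/fl and 51.6 CPM in NF-YAcKO, and that of Myh1 was 2860 and 6.32 CPM. Scn4a had a mean of 64.9 CPM in NF-YAfl/fl and 0.360 CPM in NF-YAcKO, close to the means of Pkhd1. A high r is common when 2 groups of libraries stand apart, and 274 genes passed 0.99 for Pkhd1 and 297 for Frem2. For Fras1 the first was Rnf144b (r = 0.9994), a ubiquitin ligase, with 81 genes past 0.99. For Frem1 it was Fgf14 (r = 0.9917), the only gene past 0.99.

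The proteins that work with Fras1 and the Frem proteins were examined next, with FDR values from edgeR's quasi-likelihood fit over the whole table (Benjamini-Hochberg). Of the 12 genes on the list of Fraser complex partners and relatives, 10 were tested and 1 was called. Over all tested genes 7.67% were called lower and 4.65% higher. The called gene, the adaptor Grip2, fell strongly. Its counts were 421, 597 and 597 in the NF-YAfl/fl libraries and 22, 45 and 40 in the NF-YAcKO libraries. The mean went from 18.0 ± 2.09 to 0.909 ± 0.194 CPM (SD, n = 3), with no overlap (log2 fold change -4.29, SE 0.216, FDR = 6.58e-05). Grip1, the PDZ adaptor that holds Fras1 and Frem2 at the cell surface, was at 6.95 ± 0.516 CPM in NF-YAfl/fl and 4.78 ± 0.438 CPM in NF-YAcKO, a log2 fold change of -0.54 that was not called (FDR = 0.0356). In TPM, Grip2 was above Grip1 in each control library (3.73, 5.09 and 3.93 against 1.51, 1.86 and 1.27) and below it in each NF-YAcKO library (0.16, 0.21 and 0.21 against 1.3, 0.96 and 0.93).

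The remaining relatives did not pass the limits. Frem3, the last member of the family, had at most 5 counts in any library and was not tested. Vwa2, a basement membrane protein known to bind Fras1 and Frem proteins, had 9, 9 and 10 counts in the NF-YAfl/fl libraries and 1, 1 and 0 in the NF-YAcKO libraries, and also failed the filter. Npnt, the integrin ligand nephronectin, went from 141 ± 12.01 to 92.7 ± 5.44 CPM with a log2 fold change of -0.60, below the limit on the size of the change (FDR = 0.00427). Itgb1, the beta subunit of the integrins on the list, was at 1095 ± 115 and 1084 ± 28.5 CPM (log2 fold change -0.01, SE 0.115, FDR = 0.93). The median of the 10 tested genes was -0.33. None was called higher by edgeR or DESeq2, and the unadjusted p was under 0.05 for 1 gene in that direction and for 5 in the lower direction.

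Of 6 genes whose proteins share the NG2 or Calx-beta repeats, 5 were tested and 1 was called. The shares over all tested genes were 7.67% called lower and 4.65% higher. Slc8a3, a sodium-calcium exchanger with Calx-beta domains, fell from 10.02 ± 3.59 to 1.2 ± 0.439 CPM (SD, n = 3; edgeR log2 fold change -3.07, SE 0.395, FDR = 0.0018). Its control values of 9.94, 13.7 and 6.48 CPM all lay above the NF-YAcKO values of 1.53, 0.700 and 1.36 CPM. The call was lost without replicate 3 of NF-YAcKO. Cspg4, which encodes NG2 itself and marks pericytes, was at 167 ± 63.8 and 134 ± 28.6 CPM, with a log2 fold change of -0.31 (FDR = 0.466). No gene of the list was called higher by edgeR or DESeq2, and 0 had an unadjusted p under 0.05 in that direction.

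The relatives of fibrocystin did not pass the test, next to 7.67% called lower and 4.65% higher over all tested genes. Pkhd1l1, which encodes fibrocystin-L and is its closest paralogue, was at 3.07 ± 1.45 CPM in NF-YAcKO and 2.66 ± 2.81 CPM in NF-YAfl/fl (edgeR log2 fold change 0.20, SE 0.821, FDR = 0.863). Cemip, a hyaluronidase with the G8 domain, had a log2 fold change of -0.10 (SE 0.465, FDR = 0.885), and Cemip2 (listed as Tmem2) one of -0.22 (SE 0.123, FDR = 0.196). For Pkhd1l1 and Cemip, the sign depended on which library was left out. DESeq2 called 0 of the 3 genes as well, and 0 had an unadjusted p under 0.05. In TPM, Pkhd1l1 was at 0.14, 0.05 and 0.42 in the controls, where Pkhd1 was at 5.30 or above.

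**Figure D4:**
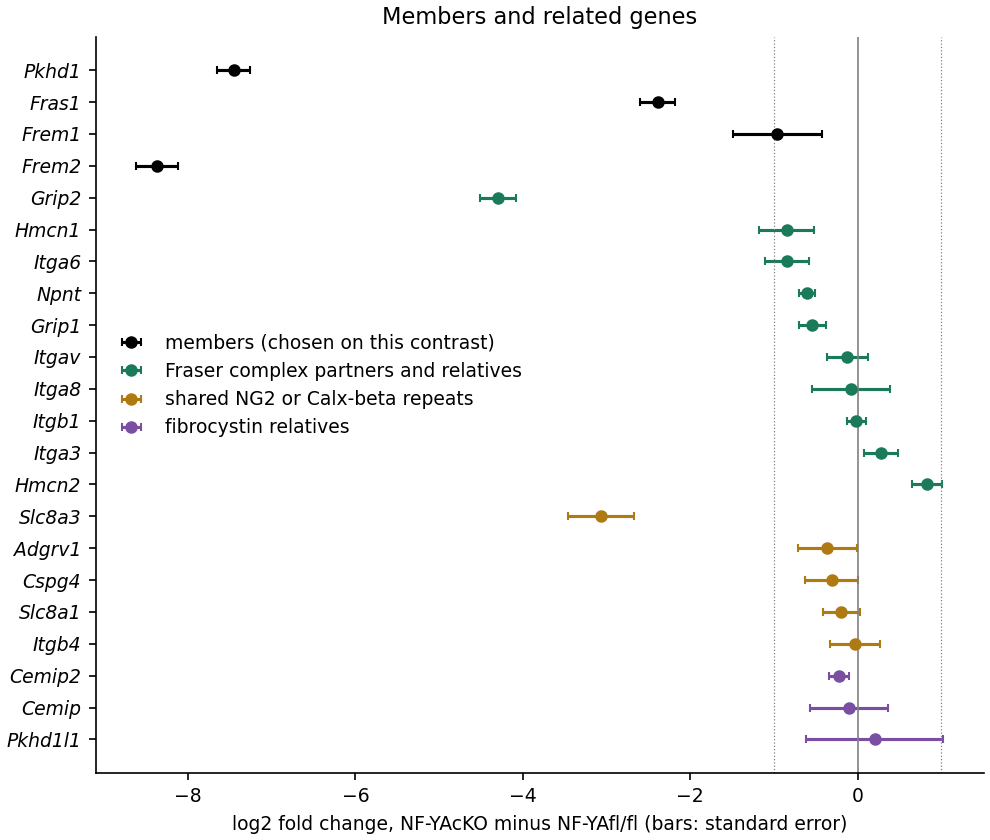
Log2 fold change (NF-YAcKO minus NF-YAfl/fl, with the standard error as bars) of the 4 genes in black, the tested Fraser complex partners in green, the proteins with shared repeats in ochre and the fibrocystin relatives in purple, with dotted lines at the limits of 1 and -1. Outside the 4 genes, Grip2 (-4.29) and Slc8a3 (-3.07) stand apart from the rest, which lie between -0.85 and 0.83.

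Other genes of cystic kidney disease and of the cilium were mostly not called. The same holds for all tested genes, of which 7.67% were called lower and 4.65% higher. Of 23 cystic kidney and nephronophthisis genes, 18 were tested and 0 were called by edgeR or DESeq2, with 5 at an unadjusted p under 0.05 in the lower direction and 0 in the higher. Pkd1 (polycystin 1) was at 293 ± 45.2 CPM in NF-YAfl/fl and 210 ± 8.15 CPM in NF-YAcKO (log2 fold change -0.48, FDR = 0.026), and Pkd2 (polycystin 2) at 185 ± 72.5 and 135 ± 9.37 CPM (log2 fold change -0.45, FDR = 0.261). The median of the 18 genes was -0.07. All 44 genes of the primary cilium were tested, with a median of 0.03, and 1 was called. This was Bbs12, a chaperonin-like protein that helps to assemble the BBSome, at 16.3 ± 0.454 CPM in NF-YAcKO and 7.72 ± 2.40 CPM in NF-YAfl/fl (edgeR log2 fold change 1.08, FDR = 0.00992), a value at the edge of the limit that did not keep its call in 10 of the alternatives. In the lower direction 0 cilium genes were called by edgeR or DESeq2, and the unadjusted p was under 0.05 for 6 genes in that direction and for 6 in the higher direction.

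Basement membrane proteins other than collagens, laminins and integrins were called in both directions. Of 29 genes 28 were tested, 4 were called lower and 1 higher, and the median was 0.08, beside 7.67% called lower and 4.65% higher over all tested genes. Nid2, a nidogen that links laminin and collagen networks, fell from 98.3 ± 28.9 to 21.1 ± 5.85 CPM (edgeR log2 fold change -2.22, SE 0.282, FDR = 0.00171). Dag1, the dystroglycan receptor, fell from 314 ± 80.2 to 112 ± 4.49 CPM (-1.48, FDR = 0.00172). Hspg2, the perlecan core protein, fell from 2403 ± 731 to 1026 ± 55.2 CPM (-1.23, FDR = 0.00531). Ltbp4, a latent TGF-beta binding protein, fell from 72.3 ± 17.2 to 36.1 ± 1.52 CPM, just past the fold limit (FDR = 0.0053). The call was lost in 8 of the alternatives for Ltbp4, in 5 for Hspg2, in 2 for Dag1 and in 1 for Ntn4. Ntn4, a netrin that binds laminin, rose from 18.6 ± 1.04 to 40.9 ± 2.35 CPM (1.14, SE 0.101, FDR = 0.000518). Leaving out replicate 1 or 2 of NF-YAcKO left 1 gene called lower, and leaving out replicate 3 of NF-YAcKO or replicate 1 of NF-YAfl/fl left 2.

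The genes beside the 4 were examined by position. Of the 24 genes that were the 3 nearest tested on either side of a member, 2 were called lower, 1 higher and 21 not at all, next to 7.67% called lower and 4.65% called higher over all tested genes. Around Pkhd1, Linc-md1 lay 51.8 kb away, a long noncoding RNA of differentiating muscle whose locus hosts miR-206 and miR-133b. It had 50.3, 62.9 and 199 counts in the NF-YAfl/fl libraries and 1, 2 and 11 in the NF-YAcKO libraries, with no overlap (edgeR log2 fold change -4.84, FDR = 0.00553). The next gene on that side, Mcm3, a subunit of the replicative helicase 184.9 kb from Pkhd1, rose from 57.9 ± 11.2 to 169 ± 7.23 CPM (1.54, FDR = 0.000709).

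Beside Frem2, the unnamed gene Gm30735 (44.5 kb away) had 140, 82 and 149 counts in the NF-YAfl/fl libraries and 0 in each NF-YAcKO library. Set against a floor of 3 counts per library, it was at least 53.9-fold lower in NF-YAcKO (edgeR FDR = 0.00135). Its other neighbours were not called, with Ufm1 at a log2 fold change of 0.49 (FDR = 0.00446) and Proser1, 32.2 kb away, at -0.91 (FDR = 0.0979). Beside Fras1, Anxa3 at 8.65 kb had a log2 fold change of -0.46 (FDR = 0.04), and beside Frem1, Zdhhc21 at 38.0 kb had 0.20 (FDR = 0.182). Within the span of Fras1, Gm33050 had 12, 35 and 32 counts in NF-YAfl/fl and 4, 5 and 8 in NF-YAcKO (log2 fold change -2.54, FDR = 0.0058). The library kit keeps the strand, but whether the counting used it is not given in the sources used here, and the reads of Gm33050 and Fras1 may not be separate.

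**Figure D5:**
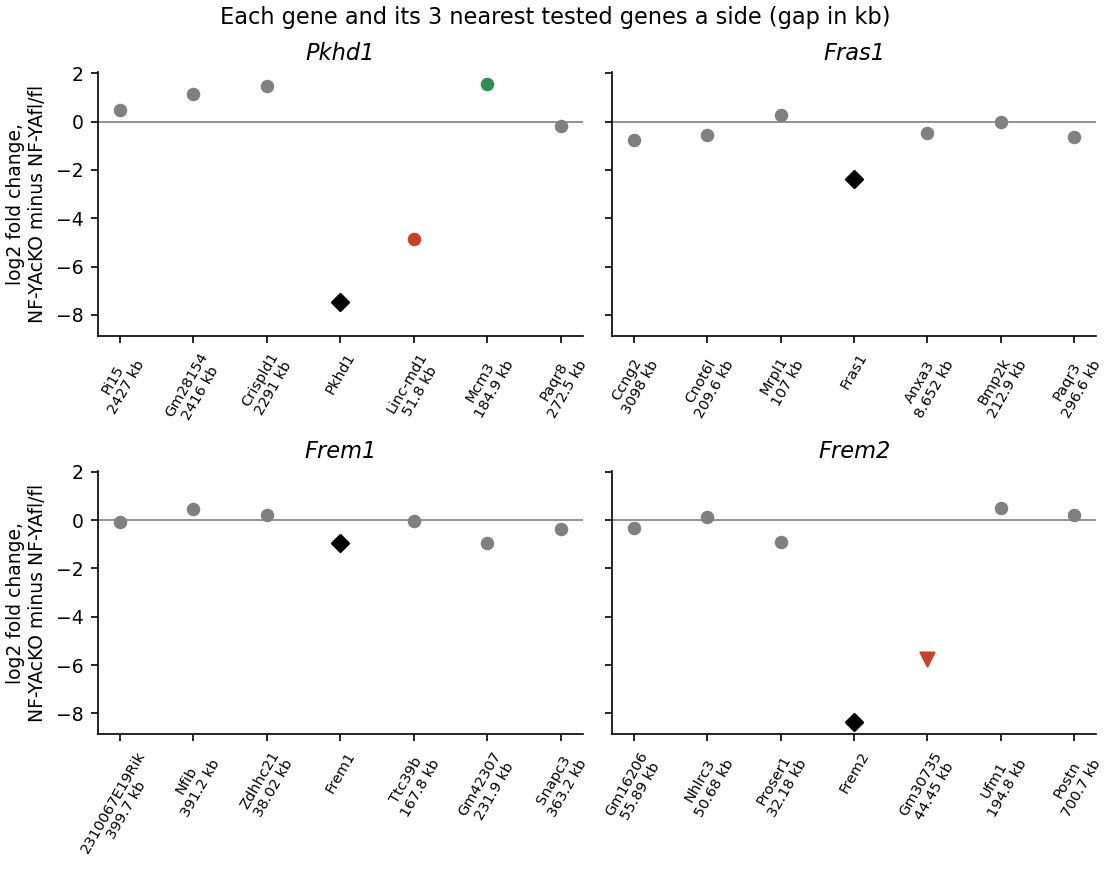
Log2 fold change (NF-YAcKO minus NF-YAfl/fl) of each of the 4 genes (black diamond) and of its 3 nearest tested genes on each side in chromosome order, with the gap in kb under each name. Red marks a gene called lower, green one called higher and grey one not called, and the triangle for Gm30735 is a bound against 3 counts; Linc-md1, Gm30735 and Mcm3 are the called genes.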

How the data were processed

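Expected counts, TPM, transcript lengths and the percent of a gene's TPM held by each transcript were deposited by the authors for each library, made with Bowtie2 on mm10 and RSEM. RSEM splits reads shared by transcripts, so an expected count, a TPM and a percent are estimates. The deposited expected counts were rounded, and the 17348 of 35976 genes that exceeded 10 counts in 2 or more libraries were fitted by genotype alone with edgeR 4.0.16 in R 4.3.3 (TMM, quasi-likelihood F test). P-values were adjusted by Benjamini-Hochberg, and a call needed FDR < 0.01 and an absolute log2 fold change over 1. The fit was run on simulated counts with the same spread in both genotypes. The biological CV here was 0.105 in NF-YAcKO and 0.31 in NF-YAfl/fl, so the simulation does not cover this unequal spread. The members, lists, markers and limits were chosen with earlier results of these data known. Named genes were the members, up to 6 called genes of each list by size of change, relatives of the same family, the 3 most alike genes, the 3 nearest tested neighbours on each side, and markers at 0. Others, such as Npnt, Itgb1, Vwa2, Cspg4 and the overlapping Gm33050, were named after their values had been seen. Coordinates and promoters are RefSeq's (GRCm38). The labels do not say that libraries of a genotype are from separate mice, so p-values measure the spread between these libraries. The floor of 3 counts covers counting error only. Alternatives were DESeq2 1.42.0, its size factors, filterByExpr, no filter, no rounding, limma 3.58.1 on log2(TPM + 1) and log2(TPM + 0.1), an FDR of 0.05, a replicate block and leaving out each library. No pair of libraries was a duplicate. Markers of fibro-adipogenic progenitors summed to 2596 to 3074 CPM in NF-YAcKO and 784 to 3378 CPM in NF-YAfl/fl, of endothelium to 11.9 to 17.6 and 4.11 to 7.52 CPM, of Schwann cells to 15.0 to 20.2 and 6.19 to 8.65 CPM, and of smooth muscle and pericytes to 740 to 915 and 1749 to 2035 CPM. Some genes that these rules name are not reported here. Plots were drawn with matplotlib 3.10.9.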

Additional observations from a re-analysis of the deposited data

How the results depend on the processing

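The log2 fold changes of Pkhd1 (-7.62 to -7.36), Fras1 (-2.57 to -2.24), Frem1 (-1.33 to -0.41) and Frem2 (-8.73 to -8.19) kept their sign without any 1 library, and those of Pkhd1 (-7.49 to -7.43), Fras1 (-2.42 to -2.36) and Frem2 (-8.41 to -8.35) moved little under the other count fits. On log2(TPM + 0.1) they were -5.83 for Pkhd1 and -6.58 for Frem2, and on log2(TPM + 1) -3.07 for Pkhd1, -1.80 for Fras1 and -3.77 for Frem2, as a pseudocount compresses low values. Over all genes, limma called 361 higher on log2(TPM + 0.1), and 231 higher and 704 lower on log2(TPM + 1), while an FDR of 0.05 called 2025 lower. Without 1 library 177 to 890 were called higher and 523 to 1684 lower, the fewest without replicate 2 of NF-YAcKO, and both counts also fell by over 1.5 times without replicate 1 or 3 of NF-YAcKO or replicate 1 of NF-YAfl/fl. Fraser complex genes called lower were 2 with no filter. Shared-repeat genes called lower were 0 on log2(TPM + 1) and 0 to 1 without 1 library. Cystic kidney genes called lower were 1 at an FDR of 0.05 and 0 to 1 without 1 library (1 without replicate 3 of NF-YAfl/fl). Cilium genes called higher were 0 with DESeq2's size factors, filterByExpr, both limma fits and the replicate block, and 0 to 1 without 1 library. Basement membrane genes called higher were 0 on log2(TPM + 1) and 2 at an FDR of 0.05, and 1 to 5 were called lower without 1 library. Without 1 library the log2 fold change ran from -0.31 to 1.54 for Pkhd1l1 and from -0.56 to 0.17 for Cemip. The cause of these changes was not tested.

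The replicate numbers did not pair the libraries (same-number correlations 0.257, -0.147 and 0.0569 over 10844 genes). With the replicate block, 625 genes were called higher and 947 lower, Pkhd1 was at -7.44, Fras1 at -2.38, Frem1 at -0.86 and Frem2 at -8.38. Of the named related genes, Bbs12 and Ltbp4 lost their calls under it.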
